A study of Apis mellifera with 10 samples.

Results

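Long noncoding RNAs (lncRNAs) were examined in the antennae of honey bees (Apis mellifera) in which the odorant coreceptor gene orco had been targeted. The well-expressed lncRNAs are the annotated lncRNA genes with a mean of at least 20 CPM (reads per 1000000 assigned reads) over all 10 libraries, a gene span under 200000 bp, and neither LOC113218974 nor Kakusei among them. Of 12332 bee genes counted, 1858 carried the lncRNA biotype in the RefSeq gene table of Amel_HAv3.1, 108 of these reached 20 CPM, and 99 remained after 9 were left out by span or name. They were chosen by their mean level over both groups, so their levels are a description. The limits of level and span use no contrast between the groups. The rule was, however, set with earlier results of these data known, and LOC113218974 and Kakusei were left out by name. Just inside the limit stood LOC107965091 at 20.1, LOC100578777 at 20.3 and LOC107965098 at 20.3 CPM, and just outside it stood LOC102654335 at 19.8, LOC107965039 at 19.6 and LOC100576602 at 19.6 CPM.

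LncRNAs are transcripts without a long conserved reading frame. Some act in the nucleus on chromatin, splicing or transcription, some act in the cytoplasm, and some arise from transcription whose product has no known role. Many lie on the opposite strand of a coding gene or close to its start, where the act of transcribing them can affect the neighbour. In the honey bee, a few nuclear noncoding RNAs were first described from the brain, among them Ancr-1 and Ks-1. The files and the gene table give no function for the LOC genes, and none is stated here.

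All bees were reared in the laboratory after injection as embryos, and antennae were removed from adults no later than 24 hours after emergence. The 5 control libraries (replicates 3, 4, 5, 6 and 7) came from bees injected with buffer, and the 5 orco_KO libraries (replicates 3, 5, 9, 11 and 12) from bees injected with a CRISPR ribonucleoprotein complex against orco, whose product is the subunit shared by odorant receptors. The labels give no allele for any library and do not state whether a library is 1 bee or a pool, nor whether libraries are separate bees, so p-values measure the spread between libraries only. Ribosomal RNA was depleted before stranded library preparation, although the labels name the molecule polyA RNA, so whether transcripts without a poly(A) tail were retained cannot be told from them.

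Reads assigned to bee genes numbered 9497211 to 23453690 per control library and 8577416 to 18308425 per orco_KO library, and a well-expressed lncRNA had between 24 and 128346 reads in a library, with a median of 611.5. The targeted gene, named Or2 in the annotation, fell from 382 ± 82.6 CPM in controls to 22.9 ± 9.33 in orco_KO (SD, n = 5 each). The 34 odorant receptor genes with a symbol of Or and a number, Or2 included, summed to 440 to 664 CPM in controls and 49.5 to 103 in orco_KO. Or2 alone took 306 to 492 CPM of the control sums, so most of that fall is its own. Of 29 tested receptors 22 were lower, Or2 among them. Of the 9 neuron markers listed, 7 were matched and elav and nSyb were not. Of these 7, 6 fell, and their summed level was 7640 to 18377 CPM in controls against 4340 to 6429 in orco_KO. The matched glial marker Eaat-2 fell from 6.24 to 9.14 CPM to 0.232 to 1.60 CPM, while the defining glial marker repo was not matched. Summed muscle markers stood at 1710 to 3312 against 2055 to 5414 CPM (3 of 8 matched, 1 lower, 1 higher), fat body markers at 5.33 to 98.5 against 20.6 to 82.9 CPM (5 of 5 matched, 2 tested, neither called) and eye opsins at 3.09 to 9.24 against 5.75 to 13.3 CPM (4 of 4 matched, 2 tested, 1 higher). In bulk tissue, fewer cells of a type and less RNA per cell cannot be told apart, and the part of these markers in the lncRNA differences was not tested.

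Between the groups, 12 of the 99 lncRNAs fell and 16 rose in orco_KO, and 71 did not pass the test (quasi-likelihood test of edgeR, threshold of 0.05 on p-values adjusted by Benjamini-Hochberg over 9222 genes, all 99 lncRNAs included). Over all tested genes 12.5% were called, 7.98% lower and 4.57% higher, against 28.3%, 12.1% and 16.2% of the lncRNAs. Protein-coding genes that met the same limits of level and span gave 10.8% lower and 7.55% higher of 3657, and the 631 tested lncRNAs under 20 CPM gave 39 lower and 32 higher. The falls were the larger changes: the called lncRNAs had a median log2 fold change of -1.52 among the lower and 0.78 among the higher, and a change of at least 2-fold was seen in 10 of the 12 lower but 3 of the 16 higher. This held for called genes of the other classes too. Their medians were -1.36 and 0.85 over all tested genes, -1.18 and 0.77 for the coding genes, and -2.14 and 1.065 for the lncRNAs under 20 CPM. The median log2 fold change over the 99 lncRNAs was 0.21, against 0.0075 for coding genes of the same level and -0.055 for all tested genes, and 66 of the 99 had a positive value. That lean to positive values was also present among the lncRNAs under 20 CPM, where 413 of 631 were positive.

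The count of higher lncRNAs moved with the processing, whereas that of lower ones hardly did. Without scaling factors there were 12 lower and 10 higher (7.75% and 4.37% of all genes), limma-voom gave 12 lower and 17 higher (7.99% and 5.61%), and DESeq2 gave 13 lower and 25 higher (8.94% and 8.46%). Leaving out control replicates 6 and 7 together left 12 lower and 9 higher, beside 7.71% and 2.18% of all genes. Without control replicate 6 alone 10 were higher, but the share over all genes was not worked out for that fit. Of the 12 lower lncRNAs, 11 were called in each of the 10 fits without 1 library, and of the 16 higher, 8 were.

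**Figure D1:**
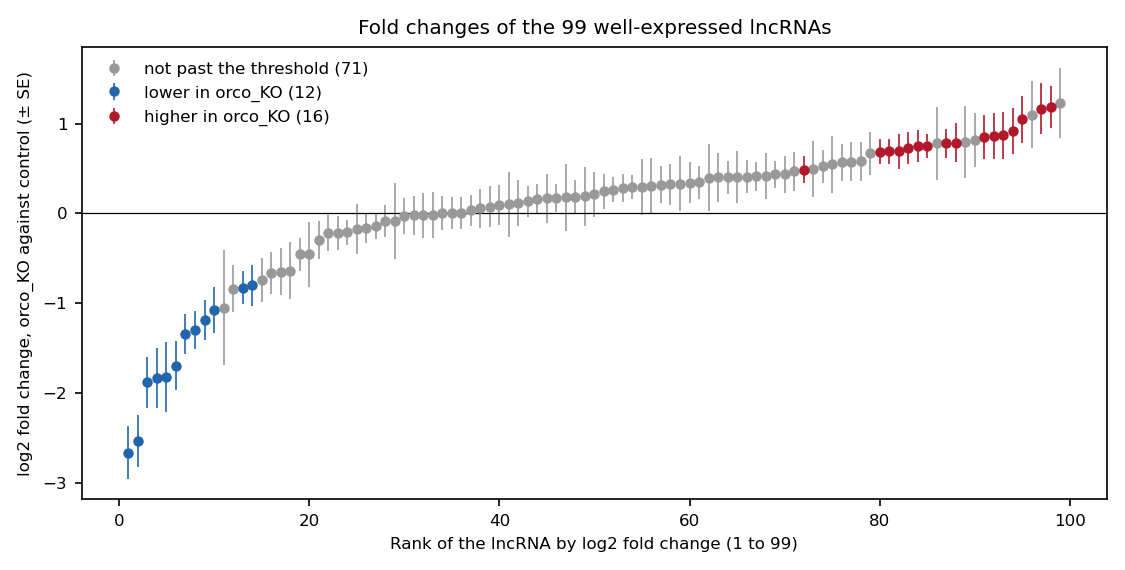
Log2 fold change of orco_KO against control for each of the 99 lncRNAs, ranked from lowest to highest; points are edgeR estimates, bars are standard errors, and colour marks the call. The 12 lower lncRNAs reach -2.66, whereas the 16 higher ones lie between 0.48 and 1.19, and the highest value of all (1.23, LOC725381) is not past the threshold.

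The most abundant lncRNA did not pass the test. Ancr-1, a nuclear noncoding RNA (linkage group 5, 13480118 to 13487797, forward strand), took 38.9% of the reads on the 99 lncRNAs. Library values are given throughout in the order of replicates 3, 4, 5, 6 and 7 for control and 3, 5, 9, 11 and 12 for orco_KO, in CPM over TMM-scaled library sums. Ancr-1 stood at 9038, 5867, 8267, 2928 and 3514 CPM in controls and at 8556, 9943, 6619, 6235 and 5922 CPM in orco_KO. Control replicates 6 and 7 lay below the other 8 libraries, among which both groups overlapped. The log2 fold change was 0.33 (SE 0.310, edgeR adjusted p = 0.549). Per kb of gene span its level was 871 CPM, the highest of the 99, whose median was 2.72 CPM per kb. The small coding gene LOC102655090 lies wholly inside Ancr-1 on the same strand. Reads shared by genes on the same strand were assigned to neither, so it could receive no read and no level of it can be given.

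Of the other 5 lncRNAs among the 6 highest in mean CPM, LOC725233, described with the higher lncRNAs, rose, and 4 did not pass the test. LOC102653599, which lies largely within the coding gene LOC410857 on the other strand, was at 1276, 1126, 971, 1205 and 1298 CPM in controls and 1547, 1181, 1178, 1066 and 1591 CPM in orco_KO (log2 fold change 0.16, SE 0.170, edgeR adjusted p = 0.607). LOC113218601 averaged 846 ± 141 CPM over the controls and 928 ± 153 CPM over orco_KO (SD, n = 5 each), while LOC107965062 averaged 416 ± 115 and 407 ± 67.2. LOC107966103 was at 331 ± 71.2 and 332 ± 52.7 CPM and belongs, with LOC107965502 and LOC107965194, to the 3 lncRNAs with the largest p-values. LOC725381, among the 6 highest per kb of span (87.2 CPM per kb), averaged 77.4 ± 44.4 CPM in controls and 182 ± 78.5 in orco_KO. Its log2 fold change of 1.23 (SE 0.392) missed the threshold at an edgeR adjusted p of 0.0559, and the groups overlapped, since orco_KO replicate 9 (92.3 CPM) lay below control replicates 4 and 5 (103 and 140 CPM).

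As a whole the 99 lncRNAs took 1.47% ± 0.0914 of the bee reads of a control library and 1.67% ± 0.0865 of an orco_KO library (SD, n = 5 each). The ranges, 1.35% to 1.58% and 1.56% to 1.78%, overlapped slightly. With Ancr-1 set aside the shares were 0.899% ± 0.131 and 0.954% ± 0.139, which differed by less than the SD of either group.

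The lncRNA that fell most was LOC107965433 (linkage group 13, 7578456 to 7580316, forward strand), a short gene wholly inside Glurb, a glutamate receptor gene transcribed from the other strand. It was at 35.6, 23.8, 39.4, 40.9 and 33.9 CPM in controls and at 3.71, 3.45, 9.59, 6.43 and 3.64 CPM in orco_KO. Every orco_KO library lay below every control library, and the fall was 6.34-fold (log2 fold change -2.66, SE 0.290, edgeR adjusted p = 3.32e-05). Glurb fell too, from 168 ± 52.9 to 45.5 ± 12.3 CPM (SD, n = 5 each; log2 fold change -1.89, edgeR adjusted p = 0.00012). Glutamate receptors of this kind are found on neurons. The summed neuron markers given above were lower in the same libraries, and whether this has a part in either fall was not tested. Non-overlapping groups were found in 11.2% of all tested genes, 7.45% with orco_KO below and 3.76% with orco_KO above, against 10 and 11 of the 99 lncRNAs.

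On linkage group 3, LOC107964204 (3980591 to 3987086) and LOC100576853 (3989509 to 3996056) lie a short distance apart on the forward strand, both inside LOC408754 on the reverse strand. LOC107964204 was at 132, 50.1, 117, 68.0 and 71.4 CPM in controls and at 17.4, 33.6, 31.8, 21.5 and 30.3 CPM in orco_KO, with no overlap (log2 fold change -1.70, SE 0.273, edgeR adjusted p = 0.000792). LOC100576853 fell from 52.5 ± 16.1 to 24.8 ± 7.78 CPM (SD, n = 5 each; log2 fold change -1.08, edgeR adjusted p = 0.0123), and here control replicate 4 (31.8 CPM) lay below orco_KO replicate 9 (34.2 CPM). The coding gene around both had 12.8 ± 4.26 CPM in controls and 15.5 ± 2.69 in orco_KO and was not called (log2 fold change 0.26, edgeR adjusted p = 0.523).

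The longest chain of called lncRNAs, taken as members changed in 1 direction with gaps of at most 50000 bp, lies on linkage group 2 beside and among odorant receptor genes. It holds LOC100578436 (9798166 to 9940155), LOC107966099 (9980987 to 9991179) and LOC107966098 (9994700 to 10003931), all on the reverse strand. LOC107966098 was at 40.4, 40.3, 72.5, 42.8 and 42.0 CPM in controls and at 6.02, 10.8, 18.6, 17.5 and 11.2 CPM in orco_KO, so the groups did not overlap (log2 fold change -1.88, SE 0.281, edgeR adjusted p = 0.000447). LOC107966099 was at 33.2, 25.5, 92.6, 31.6 and 30.0 CPM in controls and at 6.95, 11.4, 19.7, 14.9 and 6.79 CPM in orco_KO, again without overlap (log2 fold change -1.82, SE 0.391, edgeR adjusted p = 0.00676). Control replicate 5 was the highest control for both, and orco_KO replicate 9 the highest of its group. LOC100578436 was at 265, 172, 294, 150 and 63.8 CPM in controls and at 38.6, 53.5, 54.2, 72.7 and 46.3 CPM in orco_KO. Its fall passed the test (log2 fold change -1.83, SE 0.331, edgeR adjusted p = 0.00203) although control replicate 7 lay below orco_KO replicate 11.

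The 3 other well-expressed lncRNAs that lie within the chain did not pass the test. LOC107966103 and LOC113218601, given above, and LOC107966102, at 54.1 ± 11.9 CPM over the controls and 51.0 ± 7.67 CPM over orco_KO (SD, n = 5 each; edgeR adjusted p = 0.807), share the strand of the chain. The coding gene opposite LOC107966103 and LOC113218601, LOC408699, rose from 29.3 ± 8.80 to 52.5 ± 12.8 CPM (log2 fold change 0.83, edgeR adjusted p = 0.0292).

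Opposite LOC107966099 and LOC107966098 run odorant receptor genes, which encode the odour-binding subunits that pair with the orco product. Or4 fell from 3.02 ± 1.17 to 0.212 ± 0.317 CPM (log2 fold change -3.45, edgeR adjusted p = 0.00201), Or5 from 1.73 ± 0.890 to 0.334 ± 0.271 (-2.19, adjusted p = 0.0253) and Or9 from 2.89 (range 1.80 to 5.51) to 0.244 (range 0 to 0.516; -3.42, adjusted p = 0.00147). The other coding genes opposite the same lncRNAs were LOC100577787, LOC102655367, LOC102655434 and LOC102655553. Their log2 fold changes were -1.20, 1.05, 0.57 and 0.63, and none passed the test. Receptors were taken by symbol, so whether any of these LOC genes encodes a receptor cannot be told here. The lncRNA LOC107966100, which lies between the pair on their strand and is under the 20 CPM limit, fell as well (log2 fold change -3.62, SE 0.744, edgeR adjusted p = 0.00506).

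**Figure D2:**
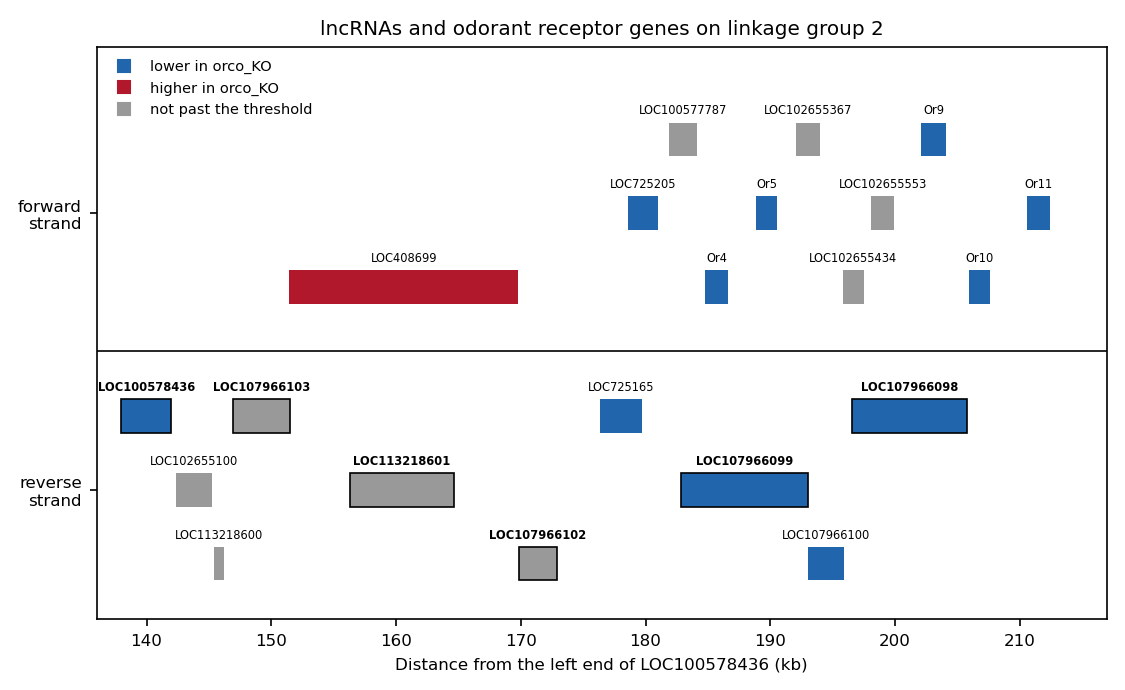
Map of the genes around the chain on linkage group 2 in kb from the left end of LOC100578436, of which only the right end is drawn; forward-strand genes are above the line and reverse-strand genes below it, well-expressed lncRNAs have a black outline and bold names, and colour marks the edgeR call. LOC107966099 and LOC107966098 lie opposite Or4, Or5 and Or9, which were lower, and opposite other coding genes, which are grey. LOC107966103, LOC113218601 and LOC107966102, between that pair of lncRNAs and LOC100578436, are grey too.

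Among lncRNAs that overlap no coding gene, LOC113218721 fell most. This gene of 615 bp (linkage group 4, 13197776 to 13198390, forward strand) ends 9 bp before the start of the coding gene LOC408769 on the same strand. It was at 169, 114, 118, 59.3 and 64.1 CPM in controls and at 21.9, 19.7, 18.8, 18.7 and 11.3 CPM in orco_KO, a fall of 5.81-fold without overlap (log2 fold change -2.54, SE 0.289, edgeR adjusted p = 4.75e-05). LOC408769 fell beside it from 601 ± 168 to 130 ± 29.2 CPM (log2 fold change -2.21, edgeR adjusted p = 1.9e-05). With so small a gap, whether the 2 annotated genes are separate transcripts was not tested.

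A similar placement was seen in 2 lncRNAs of linkage group 8, where a coding gene on the reverse strand begins downstream of the lncRNA. LOC113218944 (11304582 to 11319142) was at 466, 283, 514, 257 and 282 CPM in controls and at 117, 173, 155, 149 and 138 CPM in orco_KO, so that the groups stood apart (log2 fold change -1.30, SE 0.214, edgeR adjusted p = 0.000998). LOC107964805, at a distance of 112 bp, went from 116 ± 58.6 to 63.2 ± 23.6 CPM and was not called (log2 fold change -0.88, edgeR adjusted p = 0.103). LOC113218923 (11966446 to 11977976) fell from 31.8 ± 9.37 to 13.9 ± 3.38 CPM without overlap (log2 fold change -1.19, edgeR adjusted p = 0.00301), and LOC412299, at 256 bp, fell by 1.00 on the log2 scale (edgeR adjusted p = 0.00692).

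The other lower lncRNAs overlap no coding gene, and the coding gene nearest to each was not called or not tested. LOC113218632 (linkage group 1, 12493604 to 12502742, forward strand) was at 99.7, 82.9, 89.9, 119 and 130 CPM in controls and at 26.6, 28.2, 53.4, 52.7 and 44.3 CPM in orco_KO, without overlap (log2 fold change -1.34, SE 0.221, edgeR adjusted p = 0.000998). LOC107965406 (linkage group 13, 3858416 to 3869778, reverse strand) fell from 139 ± 33.9 to 78.3 ± 13.3 CPM (log2 fold change -0.83, edgeR adjusted p = 0.00947). LOC107964583 fell from 29.7 ± 6.11 to 17.0 ± 5.16 CPM (log2 fold change -0.80, edgeR adjusted p = 0.0326). That last call was lost when control replicate 5 or 7 or orco_KO replicate 3, 5 or 9 was left out, with adjusted p up to 0.0841, and it was lost without scaling factors.

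**Figure D3:**
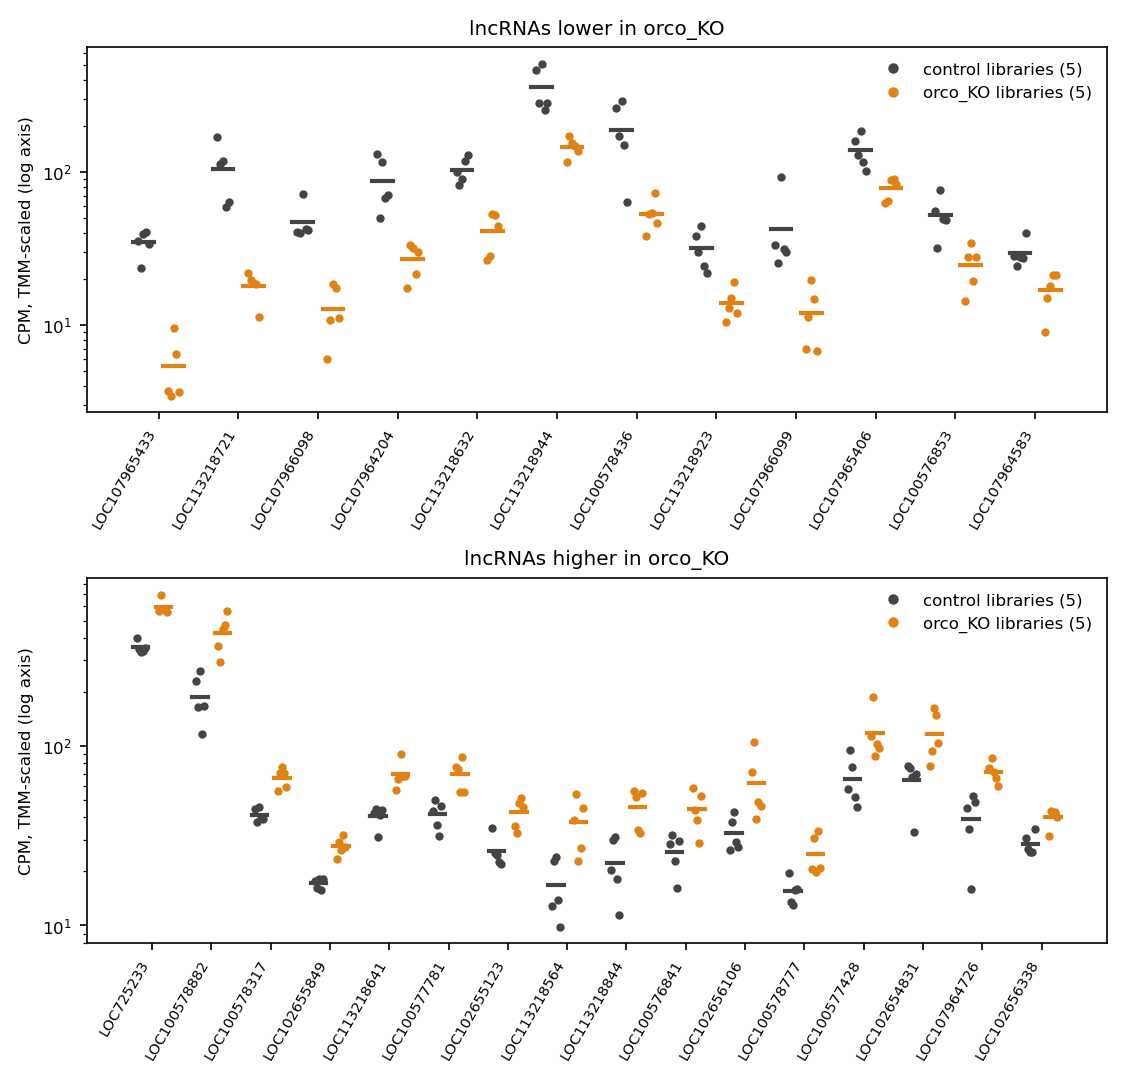
CPM over TMM-scaled library sums (log axis) of the 12 lower lncRNAs (top) and the 16 higher lncRNAs (bottom), ordered by p-value from left to right; each point is a library and the short line is the group mean of 5. The groups stand apart for 10 of the 12 lower and 10 of the 16 higher lncRNAs.

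Among the higher lncRNAs, LOC725233 had the smallest p-value and little spread between libraries. It lies on linkage group 7 (10246853 to 10264697, reverse strand) inside the very long coding gene LOC725329 on the other strand. Its values were 398, 349, 334, 339 and 352 CPM in controls and 566, 698, 578, 578 and 555 CPM in orco_KO, without overlap (log2 fold change 0.75, SE 0.136, edgeR adjusted p = 0.00208). With the libraries numbered 3 and 5 alone, a choice made after seeing the data, it was not called (log2 fold change 0.83, edgeR adjusted p = 0.095). LOC725329 had 181 ± 9.48 CPM in controls and 239 ± 23.0 in orco_KO, a log2 fold change of 0.41 that missed the threshold at an adjusted p of 0.0530. A second lncRNA that overlaps this gene, LOC107964726 (10396715 to 10484817), went from 39.4 ± 14.8 to 72.0 ± 9.93 CPM (log2 fold change 0.87, edgeR adjusted p = 0.0415). That call was lost in 5 of the 10 fits without 1 library, those without control replicate 4 and without orco_KO replicates 3, 5, 9 and 11, and without scaling factors.

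The largest rise past the threshold was that of LOC100578882, a gene of 184493 bp (linkage group 1, 22204116 to 22388608, forward strand). It was at 230, 164, 262, 117 and 168 CPM in controls and at 360, 293, 451, 470 and 568 CPM in orco_KO, without overlap (log2 fold change 1.19, SE 0.233, edgeR adjusted p = 0.00366). The call held in each fit without 1 library, but with the libraries numbered 3 and 5 alone, a choice made after seeing the data, the log2 fold change was 0.45 (edgeR adjusted p = 0.434). The nearest coding gene, LOC552142, starts 21695 bp away on the other strand and was not called (log2 fold change 0.43, edgeR adjusted p = 0.124).

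Smaller rises with narrow spreads were seen in 3 lncRNAs. LOC100578317 (linkage group 11, 13309958 to 13319365, reverse strand) was at 44.7, 37.8, 45.9, 39.9 and 39.0 CPM in controls and at 56.2, 71.2, 76.0, 70.6 and 59.1 CPM in orco_KO (log2 fold change 0.69, SE 0.138, edgeR adjusted p = 0.00451). LOC102655849 (linkage group 1, 18912676 to 18915090, reverse strand), inside LOC408577 on the other strand, was at 17.6, 16.2, 18.1, 15.7 and 18.2 CPM in controls and at 23.4, 29.2, 26.5, 31.9 and 27.4 CPM in orco_KO (log2 fold change 0.69, SE 0.141, edgeR adjusted p = 0.00489). In both, every orco_KO library was above every control library. LOC113218641 (linkage group 1, 17078926 to 17174703, reverse strand) rose from 40.8 ± 5.60 to 69.98 ± 12.3 CPM without overlap (log2 fold change 0.78, SE 0.160, edgeR adjusted p = 0.00494). The microRNA gene Mir3771 lies wholly inside it on the same strand, so the counting could assign no read to Mir3771. The coding gene nearest to LOC113218641, LOC409704 at 68186 bp, fell from 51.3 ± 6.61 to 37.3 ± 3.50 CPM (log2 fold change -0.46, edgeR adjusted p = 0.0468), and this was the only pair of nearest neighbours called in opposite directions. Without scaling factors LOC102655849 and LOC113218641 were no longer called.

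LOC113218844 (linkage group 6, 2058474 to 2081131, reverse strand) surrounds TpnT, the gene of muscle troponin T, on the other strand. It was at 20.4, 29.8, 31.3, 18.2 and 11.5 CPM in controls and at 56.2, 52.0, 34.0, 32.6 and 54.5 CPM in orco_KO, with every orco_KO library above every control (log2 fold change 1.05, SE 0.265, edgeR adjusted p = 0.0183). TpnT rose from 673 ± 290 to 1510 ± 601 CPM (log2 fold change 1.17, edgeR adjusted p = 0.0345), and reads of the lncRNA came to 3.30% of those of TpnT in controls and 3.04% in orco_KO. Whether some of these reads belong to the TpnT strand was not tested. The summed muscle markers, of which TpnT is 1 of 3 matched, overlapped between controls (1710 to 3312 CPM) and orco_KO (2055 to 5414 CPM). Of these 3 markers 1 was called lower and 1, TpnT itself, higher, and their part in the rise was not tested. The call was lost without orco_KO replicate 3 (adjusted p = 0.0509) and without control replicates 6 and 7 together (adjusted p = 0.0692).

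In LOC113218564 (linkage group 6, 4227985 to 4237141, forward strand) the level rose from 16.7 ± 6.42 to 37.6 ± 12.7 CPM with overlapping groups (log2 fold change 1.17, SE 0.287, edgeR adjusted p = 0.0155). LOC413785, which ends 2149 bp before it on the same strand, rose from 85.3 to 139 CPM (log2 fold change 0.70, edgeR adjusted p = 0.0131). LOC100577781, inside LOC411229 on the other strand, rose from 41.6 ± 7.54 to 69.9 ± 13.7 CPM (log2 fold change 0.75, edgeR adjusted p = 0.0127), and LOC102655123, inside LOC724292 on the other strand, from 25.9 ± 5.18 to 42.7 ± 8.05 (0.73, adjusted p = 0.0144). All 3 were called in each fit without 1 library, but none was called without control replicates 6 and 7 together, where the adjusted p was 0.0845, 0.0533 and 0.0851 in that order.

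The 6 other higher lncRNAs had edgeR adjusted p between 0.0310 and 0.0480 and log2 fold changes between 0.48 and 0.91. LOC100576841 and LOC102656106 had the smallest p-values of them: the former went from 25.8 ± 6.31 to 44.5 ± 11.6 CPM and the latter from 32.8 ± 7.26 to 62.1 ± 26.8. LOC102654831 went from 64.6 ± 18.0 to 117 ± 36.6 CPM, LOC100577428 from 65.3 ± 20.2 to 118 ± 39.6, LOC100578777 from 15.5 ± 2.63 to 25.1 ± 6.45 and LOC102656338 from 28.6 ± 3.90 to 40.01 ± 4.82. Each of these 6 calls was lost in at least 4 of the 10 fits without 1 library, and none was made without control replicates 6 and 7 together. Control replicate 6 was among the libraries whose removal ended the call for all 6.

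Calls were spread over the positions that the lncRNAs hold relative to coding genes. Of the 99, 44 lay between coding genes (6 lower, 8 higher), 26 wholly inside a coding gene on the other strand (3 lower, 4 higher) and 26 overlapped or surrounded a coding gene on the other strand (3 lower, 4 higher). The remaining 3, Ancr-1 and LOC107965062 among them, surrounded a coding gene on their own strand, and none of them was called.

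The lower lncRNAs had a median gene span of 9186 bp and the higher ones 48069 bp. Of the 26 lncRNAs of 50 kb or more, 1 fell and 7 rose, and of the 73 shorter ones 11 fell and 9 rose. Coding genes of the same level showed a like number in each direction at that length, with 85 lower and 86 higher of 509, and more lower than higher below it, with 309 and 190 of 3148. The difference between lncRNAs and coding genes in this respect was not tested. The span of the higher lncRNAs rests in part on calls that were lost when 1 library was left out: the 8 called in each of the 10 fits had a median span of 14318 bp, and 2 of them were of 50 kb or more. Since reads were counted over the whole gene span, reads in introns contribute to the long genes.

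For most called lncRNAs the nearest coding gene did not pass the test. The 99 lncRNAs had 93 different nearest coding genes, 82 of which were tested, with 9 lower and 7 higher, beside 7.98% and 4.57% of all tested genes. For the 12 lower lncRNAs, 3 neighbours fell (Glurb, LOC408769 and LOC412299), none rose, 8 did not pass the test and 1 was not tested. For the 16 higher lncRNAs, 2 neighbours rose (TpnT and LOC413785), 1 fell (LOC409704), 12 did not pass and 1 was not tested. Without control replicates 6 and 7 together, 11 neighbours were lower and 2 higher of 81 tested (7.71% and 2.18% of all genes), and DESeq2 gave 11 lower and 17 higher of 82 (8.94% and 8.46% of all genes). LncRNAs apart from any coding gene lay between 9 and 68186 bp from it, with a median of 1989 bp.

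**Figure D4:**
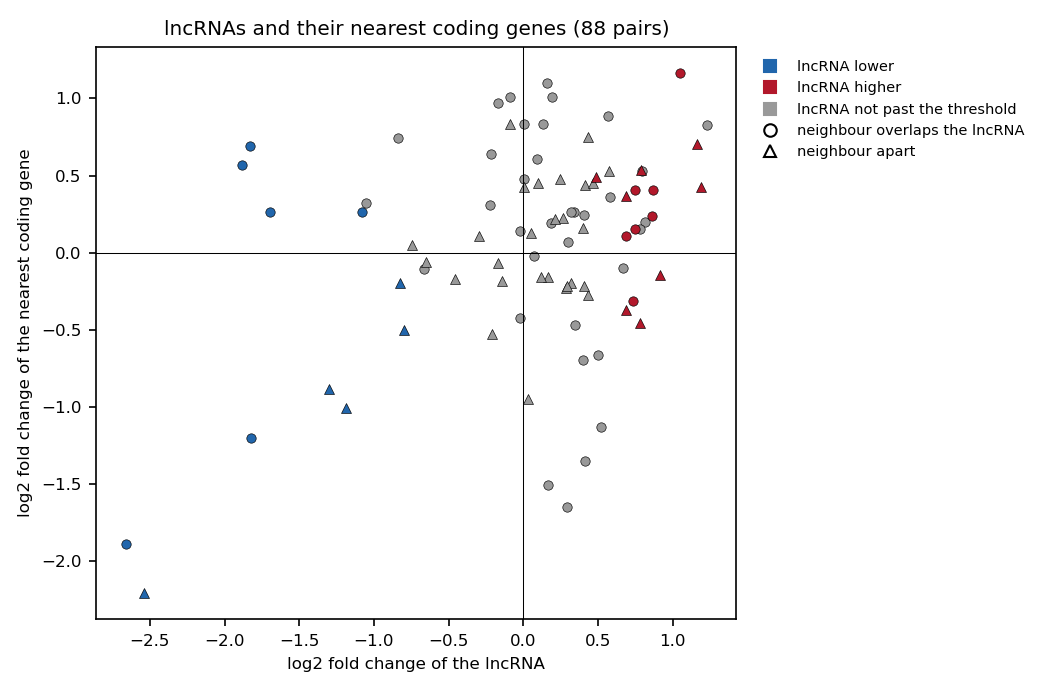
Log2 fold change of each lncRNA (horizontal axis) against that of its nearest coding gene (vertical axis) for 88 pairs in which both were tested, 48 that overlap (circles) and 40 apart (triangles); colour marks the call of the lncRNA. The points at the lower left are LOC107965433 with Glurb and LOC113218721 with LOC408769, and LOC113218844 with TpnT lies at the upper right.

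The lncRNAs differed widely in how much they varied between libraries of a group. Their median coefficient of variation was 27.2% in controls and 24.7% in orco_KO, against 22.0% and 16.6% for coding genes of the same level and 27.7% and 23.2% for all tested genes. LOC102655849 varied least among controls, by 6.53%, followed by LOC725233 with 7.19%. LOC100577542 varied most, at 100, 14.0, 11.2, 49.7 and 83.6 CPM in controls and 12.3, 29.0, 8.77, 10.6 and 63.4 CPM in orco_KO, and its groups overlapped over most of their range. Within orco_KO, replicate 9 stood above the others for LOC102655699 (96.4 CPM, others 12.6 to 30.9), for LOC113218927 (98.2 CPM, others 26.4 to 43.9) and for LOC107965445 (155 CPM, others 26.4 to 54.7). The first 2 of these lie inside the same coding gene, LOC411270, on the other strand. These 4 lncRNAs were named after their values had been seen, and none was called.

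A principal component analysis of the 99 lncRNAs alone placed the groups apart. The first component held 48.2% of the variance, with controls between -4.34 and -2.27 and orco_KO between 2.21 and 5.25. The second held 16.1% and set control replicates 6 and 7, at -3.24 and -3.68, apart from the other controls, at 1.77 to 3.85, while orco_KO libraries lay between -1.14 and 0.66.

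Counting set a limit on which lncRNAs could reach 20 CPM. Reads in a stretch shared by overlapping genes on the same strand were assigned to neither gene. Of the 1858 lncRNA genes, 200 lie wholly inside another gene on the same strand, and all 200 had no read in any library, whereas 55 of the other 1658 had none. Ks-1, inside the tyramine receptor gene TyrR, is among the former, so no level of it can be given. Of the 99 well-expressed lncRNAs, 12 have some overlap on the same strand, so that their counts are minimum values, and of these 1 was higher (LOC113218641) and none lower.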

How the data were processed

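RNA of 10 antennal libraries, 5 per group, was sequenced from both ends for 101 cycles. What the authors deposited for each library is a table of unnormalized counts, 1 row per gene. Per the submitters' processing notes reads were aligned with STAR 2.7.3a, and per the file headers they were counted with featureCounts of Subread 2.0.0 with strand setting 2 over whole gene spans, with no option for multiply mapped or shared reads, so introns count and reads in overlaps on the same strand do not. Of 12337 features, 5 virus features (at most 0.0130% of counts) were left out, and 12331 of 12332 bee genes were matched by coordinates to a RefSeq gene table of the same build, Amel_HAv3.1. The unmatched feature took 0.109% to 0.456% of counts and stayed in the library sums. No sequences are printed, as a genome was not used here.

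The groups were compared with edgeR 4.0.16 under R 4.3.3 (filterByExpr, TMM, quasi-likelihood test, no covariates, Benjamini-Hochberg adjustment over 9222 genes, threshold 0.05). The fit was also run on simulated counts. These were drawn from the levels and spread of the same fit, so they cannot show how well its assumptions hold for these libraries. Standard errors were derived from the log2 fold change and its F statistic. Levels are CPM over TMM-scaled sums, and TMM factors ran from 0.784 to 1.27, while the limit of 20 CPM used unscaled sums. Principal components were computed in R, and neighbours and gene lists with Python 3.11.15, pandas 2.3.3 and numpy 2.4.6, and figures with matplotlib 3.10.9. Alternatives were DESeq2 1.42.0, limma-voom (limma 3.58.1), other scalings, filters and limits, and fits without libraries. The replicate numbers 3 and 5 occur in both groups but are not stated to pair libraries, so no block was used.

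The members, marker lists, tests and naming rule were chosen with earlier results of these data known. The rule named the 10 lower and 10 higher lncRNAs with the smallest p and no overlap on the same strand, the 6 highest in CPM and in CPM per kb, the 3 with the largest p, those next to the limit, the longest chain, those with a symbol other than LOC, and their neighbours. Other called lncRNAs, and the 4 named for their spread, were named after their values were seen.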

Additional observations from a re-analysis of the deposited data

Results flagged for a closer look

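In 76 groups of 5 libraries (both groups of 38 named lncRNAs), 10 held a library whose gap to the nearest other value, divided by the range, exceeded Dixon's critical value of 0.71. Chance gives this in about 1 in 20 groups. Control replicate 5 was high for the neighbouring receptor-array lncRNAs LOC107966098 (72.5 CPM, others 40.3 to 42.8) and LOC107966099 (92.6 CPM, others 25.5 to 33.2), and low for LOC113218641 (31.1 CPM, others 41.3 to 44.8). Control replicate 3 was high for LOC725233 (398 CPM, others 334 to 352) and LOC102655123 (34.8 CPM, others 22.0 to 25.2). Control replicate 7 was high for LOC107964583 (40.2 CPM, others 24.4 to 28.4), and control replicate 6 was low for LOC102654831 (33.2 CPM, others 67.2 to 77.3). In orco_KO, replicate 5 was high for LOC725233 (698 CPM, others 555 to 578) and LOC100577428 (187 CPM, others 88.2 to 114), and replicate 3 was low for LOC102656338 (31.6 CPM, others 40.5 to 43.4). Without control replicate 5, LOC107966098, LOC107966099 and LOC113218641 were still called. LOC725233 and LOC102655123 were called in each of the 10 fits without 1 library. The call was lost for LOC107964583 without control replicate 7, for LOC102654831 without control replicate 6 and for LOC100577428 without orco_KO replicate 5, but not for LOC102656338 without orco_KO replicate 3.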

How the results depend on the processing

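No direction of a called lncRNA reversed under the alternatives run. Against 12 lower and 16 higher, higher lncRNAs numbered 10 without scaling factors, 25 with DESeq2 and 9 without control replicates 6 and 7 together. Fits without 1 library gave 11 to 14 lower, 10 to 20 higher (lowest without control replicate 6) and medians of 0.17 to 0.29 on the log2 scale. Replicate numbers 3 and 5 occur in both groups; same-numbered libraries deviated from their group means with correlations of 0.114 and 0.194, over 2 pairs. With these 4 libraries and a replicate block there were 15 lower and 9 higher with a median of 0.025, and without the block, an alternative chosen after seeing the data, 12 lower and 5 higher with a median of 0.061. Shares over all genes were not worked out for the fits without 1 library or with these 4 libraries. For those fits a shift of the whole test and a shift of the lncRNAs cannot be told apart. A limit of 40 CPM kept 50 lncRNAs (6 lower, 9 higher) and a limit of 10 CPM 162 (19 lower, 20 higher). The difference in read share, 0.200 percentage points, was 0.405 over a library sum without the 50 most abundant other genes and 0.169 to 0.228 without 1 library. Against 7 higher neighbours, DESeq2 gave 17, leaving out control replicates 6 and 7 together gave 2, and fits without 1 library gave 4 to 13 (7 to 9 lower). The lowest number of reads of a lncRNA in a library was 24, for LOC107965433 in orco_KO replicate 5. The planned promoter motif counts were not run.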
